A study of Mus musculus with 18 samples.

Results

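The genes described here are 32 mouse genes of the hypoxia response and of glycolysis, taken by symbol from a table of 55291 rows. They comprise 12 enzymes that carry glucose to lactate and 20 other genes, among them transporters, metabolic kinases, oxygen sensors, secreted peptides and stress genes. All 32 passed the filter on low values (at least 1 TPM in at least 3 libraries), as did 16816 rows in all.

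The data are bulk RNA sequencing of subcutaneous mouse tumours in 18 libraries, 3 in each of 6 groups. Tumours were grown from CT26 (a BALB/c colon carcinoma line), from CT26-NY-ESO-1 (CT26NYESO1 below, CT26 cells carrying the human tumour antigen NY-ESO-1) or from LL/2 (LL2 below, a lung carcinoma line of C57BL/6 mice), and the hosts were BALB/cJ or C57BL/6J mice. In each line, 1 group received the agent OK-432 (a killed preparation of Streptococcus pyogenes) in the tumour for 24 hours and 1 group was a control, and tumours were collected on day 14. The labels do not state what the controls were injected with, which promoter drives NY-ESO-1, whether that line is 1 clone, the age of the mice or which strain carried which line, and NY-ESO-1 itself was not analysed here. The question was what OK-432 does within the tumour, and for these genes also how the 3 lines differ before treatment. Whether the 3 libraries of a group come from separate mice is not stated, and a p-value here therefore reflects the variation among those libraries, which may be technical.

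Hypoxia-inducible factor (HIF) is a pair of proteins, an oxygen-labile alpha subunit (Hif1a or Epas1) and the stable Arnt. In oxygen, prolyl hydroxylases (Egln1 to Egln3) mark the alpha subunit for Vhl and degradation; without oxygen it persists and binds short elements with the core ACGTG or GCGTG near its targets. Targets raise glucose uptake, glycolysis and lactate export, hold pyruvate back from mitochondria and recruit vessels. In tumours the same genes also respond to oncogenes and to the many myeloid cells that live on glycolysis.

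Windows of 250 bases upstream of annotated starts (RefSeq, GRCm38.p6) were read for 30 of the 32 members; Bhlhe40 and Ndrg1 had none in the sequence table. Of these 30 members, 28 (93.3%) held the core ACGTG or GCGTG on either strand in at least 1 window, against 41.5% of all 27025 genes with a window. Counted by window, 79.1% of the 43 member windows held a core, against 38.6% of all windows. Windows of these members were also richer in G and C, with a median of 62.8% against 52.4%. Among 8531 windows of all genes with a GC content between 56.6% and 68.8%, 57.7% held a core. The member windows were not limited to that range. ACGTG overlaps the E-box CACGTG, which was in 7.0% of member windows and 6.0% of all windows. Tpi1 and Gpi1 had no core in any window, and no match says only that these letters are not in it. The windows below are of 3 members that were low in the same libraries, Slc2a1 (chr4:119108495-119108744, plus strand), Pgk1 (chrX:106186850-106187099, plus strand) and Bnip3 (chr7:138909507-138909756, minus strand), and of Pfkfb4 (chr9:108991652-108991901, plus strand). Pfkfb4 did not follow them among the treated CT26NYESO1 and LL2 libraries, but was also lowest in CT26 control replicate 2. The windows are printed 5′ to 3′, and capitals mark the cores on either strand.
Slc2a1: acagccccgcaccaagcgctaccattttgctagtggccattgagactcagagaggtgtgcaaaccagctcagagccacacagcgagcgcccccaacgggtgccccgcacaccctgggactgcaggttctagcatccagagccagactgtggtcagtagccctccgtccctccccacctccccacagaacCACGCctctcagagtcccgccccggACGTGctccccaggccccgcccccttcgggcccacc
Pgk1: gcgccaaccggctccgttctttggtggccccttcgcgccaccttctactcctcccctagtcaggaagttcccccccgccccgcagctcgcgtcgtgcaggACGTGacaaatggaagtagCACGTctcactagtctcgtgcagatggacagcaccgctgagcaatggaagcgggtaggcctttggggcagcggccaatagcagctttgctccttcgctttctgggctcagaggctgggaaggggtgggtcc
Bnip3: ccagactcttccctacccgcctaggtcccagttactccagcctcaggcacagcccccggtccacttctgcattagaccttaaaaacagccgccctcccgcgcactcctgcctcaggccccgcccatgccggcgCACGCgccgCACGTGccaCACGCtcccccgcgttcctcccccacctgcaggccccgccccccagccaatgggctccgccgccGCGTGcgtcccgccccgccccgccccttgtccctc
Pfkfb4: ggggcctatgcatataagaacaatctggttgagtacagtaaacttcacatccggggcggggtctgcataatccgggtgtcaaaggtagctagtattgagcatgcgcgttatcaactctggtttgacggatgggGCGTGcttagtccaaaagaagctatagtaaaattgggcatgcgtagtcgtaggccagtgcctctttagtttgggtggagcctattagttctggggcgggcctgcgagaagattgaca
The script counted 2 cores in Slc2a1, 2 in Pgk1, 5 in Bnip3, where the single E-box holds a core on each strand, and 1 in Pfkfb4. A core is a match of letters and not a measured binding site.

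Before treatment, CT26NYESO1 tumours held more of most of these transcripts than CT26 tumours. Of the 32 members, 19 were higher in CT26NYESO1 controls, against a background of 21.1% of all tested genes, and 4 were lower, against 43.9% (limma, Benjamini-Hochberg adjusted p under 0.05). The enzymes accounted for 10 of the higher calls, with Pfkp and Eno1 not called. LL2 controls differed from CT26 controls in both directions, with 10 members higher (background 29.1%) and 8 lower (39.7%). Members were thus called higher there about as often as all tested genes, and lower less often. Against CT26NYESO1 controls, LL2 controls had 6 members higher (38.8%) and 16 lower (27.5%). The median log2 difference of the 12 enzymes, on the log2(TPM + 1) scale used for every difference here, was 0.65 for CT26NYESO1 minus CT26, 0.16 for LL2 minus CT26 and -0.42 for LL2 minus CT26NYESO1. Over the 20 other members it was 0.34, -0.11 and -0.31, and over all tested genes -0.18, -0.08 and 0.10. The shift of -0.18 over all genes between CT26NYESO1 and CT26 became -0.01 on median-of-ratios rescaling, which raised the difference of each member. The calls for that pair were then 21 members higher and 2 lower, with 29.9% of all genes higher and 32% lower, and after quantile normalization 18 and 3, with 32% and 29.8%. Quantile normalization gave 13 higher and 6 lower members for LL2 minus CT26, with 38.7% of all genes higher and 31.3% lower. These comparisons share control libraries pairwise and are not independent of each other.

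**Figure D1:**
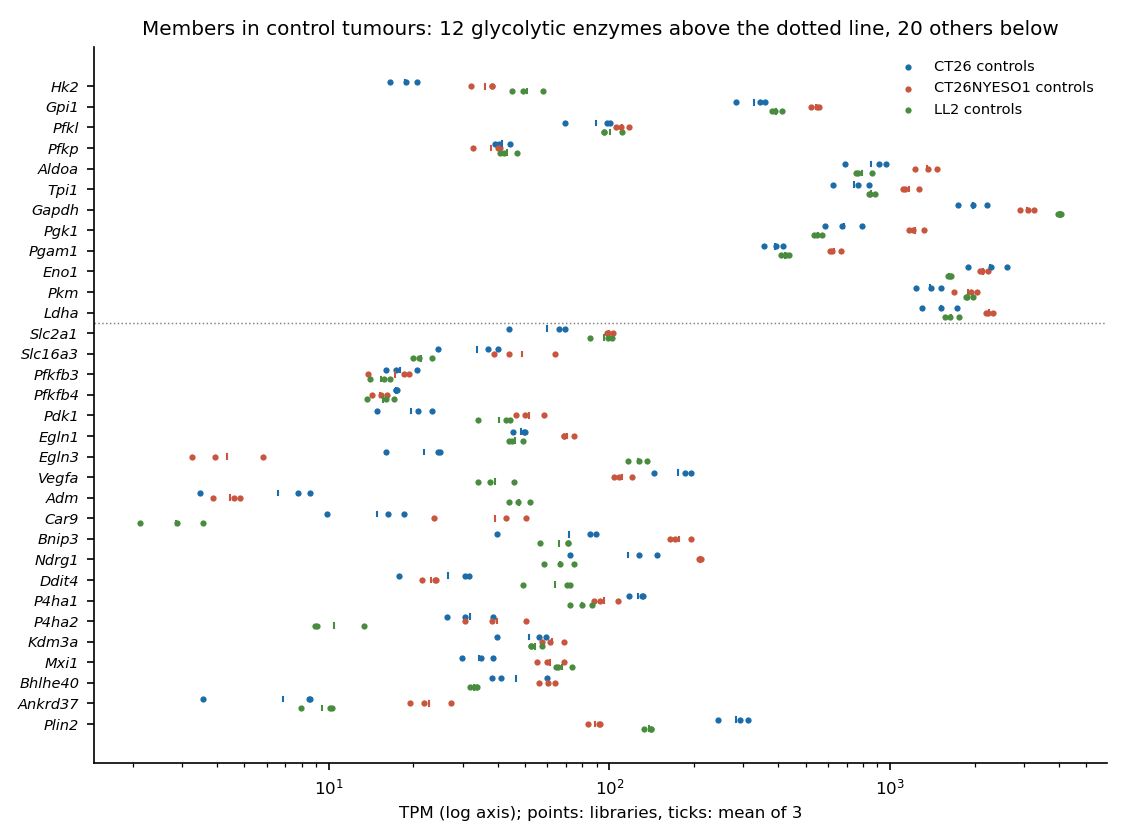
TPM (log axis) of the 32 members in the control tumours, with a point for each of the 3 libraries per line and a tick for their mean. Most enzymes are highest in CT26NYESO1 (red), Egln3 and Adm are highest in LL2 (green), and Vegfa and Plin2 are highest in CT26 (blue).

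Among the enzymes, Hk2, the hexokinase isoform that HIF induces and that traps glucose in the cell, had 20.6, 16.5 and 18.9 TPM in the CT26 controls, 31.98, 38.2 and 38.2 TPM in the CT26NYESO1 controls and 45.1, 58.1 and 48.99 TPM in the LL2 controls. The 3 ranges did not overlap. The differences were 0.92 ± 0.16 (SE; adjusted p = 1.27e-04) for CT26NYESO1 minus CT26 and 1.39 ± 0.16 (1.30e-06) for LL2 minus CT26, and 0.47 ± 0.16 (0.0181) between LL2 and CT26NYESO1. The last call ended without CT26NYESO1 control replicate 1 (0.39, adjusted p = 0.0764) or without LL2 control replicate 2 (0.37, 0.0835), and after median-of-ratios rescaling (0.36, 0.0777) or quantile normalization (0.37, 0.0697). Hk2 made up 14.3% to 17.5% of the summed TPM of Hk1, Hk2 and Hk3 in CT26 controls, 16.5% to 27.5% in CT26NYESO1 controls and 39.1% to 44.2% in LL2 controls. That share depends on the other isoforms too. Hk3 was lower in LL2 than in CT26NYESO1 (-2.54, adjusted p = 8.55e-07) and than in CT26 (-1.33, 4.22e-04).

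Pgk1, which makes the first ATP of glycolysis, had 673, 585 and 791 TPM in CT26 controls, 1164, 1315 and 1210 TPM in CT26NYESO1 controls and 538, 569.6 and 547 TPM in LL2 controls. Every CT26NYESO1 library was above every other control, at a difference of 0.86 ± 0.13 from CT26 (adjusted p = 1.99e-05) and with LL2 at -1.15 ± 0.13 against CT26NYESO1 (7.38e-07). The smaller difference of LL2 from CT26 (-0.30 ± 0.13, 0.0490) was at the threshold and was lost in 14 of the 18 fits that each left out 1 library (without CT26 control replicate 3, the largest move, -0.19, 0.228), after rescaling (-0.21, 0.192) and after quantile normalization (-0.16, 0.265). Lactate dehydrogenase Ldha, which regenerates NAD+ by reducing pyruvate, read 1518, 1297 and 1728 TPM in CT26, 2190.1, 2226 and 2319 TPM in CT26NYESO1 and 1570.3, 1763 and 1629.7 TPM in LL2 controls. It was higher in CT26NYESO1 than in CT26 by 0.58 ± 0.11 (1.44e-04), and LL2 overlapped CT26. Its difference between CT26NYESO1 and CT26 was 0.20 after quantile normalization (adjusted p = 0.0911), where the calls of Gapdh (0.21, 0.0974) and Pkm (0.15, 0.122) also ended and Eno1 was called lower (-0.46, 2.46e-04).

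The other enzymes of the chain followed Pgk1 in CT26NYESO1. Gpi1 (isomerase of glucose 6-phosphate) was higher than in CT26 by 0.73 ± 0.10, Pgam1 (phosphoglycerate mutase) by 0.70 ± 0.09, Aldoa (aldolase) by 0.67 ± 0.13, Tpi1 (triose phosphate isomerase) by 0.65 ± 0.12 and the pyruvate kinase Pkm by 0.45 ± 0.10, each with all 3 libraries above all CT26 controls and an adjusted p of at most 6.26e-04. The liver-type phosphofructokinase Pfkl was higher by 0.33 ± 0.12 (0.0264), a call that ended without CT26 control replicate 2 (0.16, 0.187), CT26NYESO1 control replicate 2 (0.33, 0.0517) or replicate 3 (0.29, 0.0864). The platelet-type form Pfkp did not follow (-0.13 ± 0.14, 0.445), and the share of Pfkl in summed phosphofructokinase TPM was 46.3% to 55.2% in CT26 controls, 59.8% to 64.7% in CT26NYESO1 and 50.6% to 53.9% in LL2. In LL2 controls, Pkm was above CT26 by 0.46 ± 0.10 (4.33e-04; 0.18, 0.0686 after quantile normalization) and Gpi1 by 0.26 ± 0.10 (0.0226), the latter not without CT26 control replicate 2 (0.16, 0.147) or LL2 control replicate 2 (0.23, 0.0759). Gpi1, Aldoa, Tpi1, Pgam1 and Ldha were each lower in LL2 than in CT26NYESO1, between -0.76 for Aldoa and -0.44 for Ldha. The call of Tpi1 ended after quantile normalization (-0.21, 0.111).

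Gapdh and Eno1 need their near-identical copies beside them, because reads that match several copies can be divided between rows. Gapdh, the oxidising step of the chain, had 1981, 1749 and 2212 TPM in CT26 controls, 3253, 2906 and 3099 TPM in CT26NYESO1 controls and 3977, 4045 and 4062 TPM in LL2 controls. On its own row LL2 was thus above both other lines (1.03 ± 0.10 against CT26, adjusted p = 1.05e-07, and 0.39 ± 0.10 against CT26NYESO1, 0.00284). The table also holds 75 rows whose transcripts match Gapdh at 95% identity or more over at least 300 bases. These took 45.8% to 49.0% of the summed Gapdh signal in every CT26 and CT26NYESO1 library but 13.5% to 14.2% in every LL2 library. With the copies added to the member, the Gapdh signal was 3858, 3344 and 4334 TPM in CT26 controls, 6083, 5419 and 5802 TPM in CT26NYESO1 controls and 4614, 4708 and 4696 TPM in LL2 controls. The difference between LL2 and CT26NYESO1 then turned to -0.30 (adjusted p = 0.0222), and that between LL2 and CT26 shrank to 0.29 (0.0266). TPM divides by each row's length, so such a sum is only approximate.

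Eno1, which makes phosphoenolpyruvate, was moved by its copies in the same direction as Gapdh, but its own row was already lower in LL2. Its row read 2291, 1897 and 2604 TPM in CT26 controls, 2121, 2091 and 2227 TPM in CT26NYESO1 controls and 1631, 1648 and 1604 TPM in LL2 controls, so all LL2 libraries were lowest. Its 3 copies took 38.6% to 42.2% of the sum in the BALB/c-derived tumours and 6.08% to 6.27% in LL2. Summing them moved LL2 minus CT26 from -0.46 to -1.12 and LL2 minus CT26NYESO1 from -0.40 to -1.07, with adjusted p-values of 2.67e-08 and 5.99e-08. Pgam1 has 1 such copy, which took 31.4% to 34.5% in all 18 libraries, and Pgk1 has 3, with 8.10% to 9.26%. Those shares barely moved between lines, and for Ldha, Pkm and Tpi1 the copies took at most 0.215%. The levels of Gapdh and Eno1 across lines are therefore uncertain in these files.

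**Figure D2:**
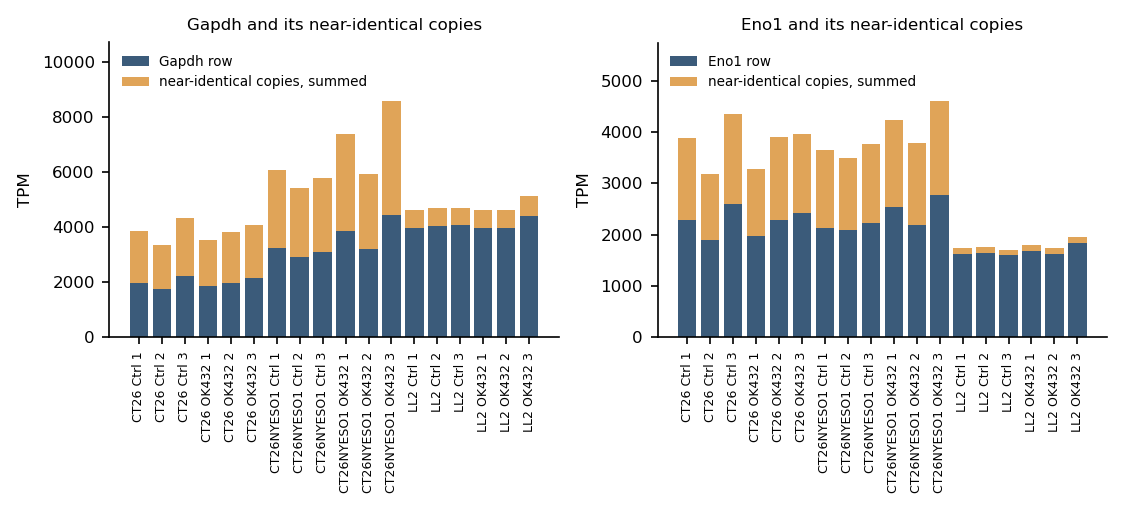
Stacked bars from 0 of the TPM of the Gapdh row (left) or Eno1 row (right) and the summed TPM of their near-identical copies, in each of the 18 libraries. In CT26 and CT26NYESO1 libraries the copies take 45.8% to 49.0% of the Gapdh sum and 38.6% to 42.2% of the Eno1 sum, and in LL2 libraries 13.5% to 14.2% and 6.08% to 6.27%.

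The membrane and flux steps showed a more mixed picture. Slc2a1, the glucose transporter GLUT1, had 69.4, 43.8 and 66.1 TPM in CT26 controls, 97.9, 98.7 and 103 TPM in CT26NYESO1 controls and 98.4, 102 and 85.1 TPM in LL2 controls. CT26 lay below both other lines, by 0.76 ± 0.27 against CT26NYESO1 (adjusted p = 0.0216) and 0.69 ± 0.27 against LL2 (0.0330), while LL2 and CT26NYESO1 overlapped. The first call ended without CT26 control replicate 2 (0.55, 0.102) or CT26NYESO1 control replicate 3 (0.74, 0.0543), and the other without CT26 control replicate 2 (0.48, 0.145) or LL2 control replicate 1 (0.66, 0.0730) or 2 (0.63, 0.0854). Slc16a3, the lactate exporter MCT4, was lowest in LL2, at 20.9, 23.2 and 19.95 TPM against 38.9, 43.8 and 63.9 TPM in CT26NYESO1 (-1.13 ± 0.21, 2.44e-04). CT26 had 40.1, 24.4 and 36.8 TPM of it, and all 3 LL2 libraries were below these too (-0.61 ± 0.21, 0.0187), a call lost without CT26 control replicate 1 (-0.47, 0.0863) or 3 (-0.53, 0.0667) or LL2 control replicate 3 (-0.56, 0.0569), and after quantile normalization (-0.46, 0.0675). The call between CT26NYESO1 and CT26 for Slc16a3 (0.52 ± 0.21, 0.0435) was lost in 9 of 18 such fits, with the lowest values without CT26 control replicate 2 (0.31, 0.217) or CT26NYESO1 control replicate 3 (0.31, 0.214).

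Pdk1, the kinase that shuts pyruvate dehydrogenase, had 20.8, 14.9 and 23.4 TPM in CT26 controls, 50.1, 58.5 and 46.6 TPM in CT26NYESO1 controls and 42.7, 44.2 and 34.01 TPM in LL2 controls. CT26 was lowest without overlap, 0.388 times the CT26NYESO1 level and 0.496 times that of LL2 on the log2(TPM + 1) scale (1.37 ± 0.18, adjusted p = 7.63e-06, and 1.01 ± 0.18, 1.41e-04). Pfkfb3 and Pfkfb4, the bifunctional enzymes whose product activates phosphofructokinase, were not called between any lines and lay between -0.21 (Pfkfb3, LL2 minus CT26) and 0.02 (Pfkfb4, LL2 minus CT26NYESO1). Their ratio, Pfkfb3 over Pfkfb4, was 0.896 to 1.30 over the 9 controls.

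The oxygen sensors split most sharply. Egln3 (PHD3), a HIF hydroxylase that is itself a strong HIF target, had 24.5, 15.9 and 24.9 TPM in CT26 controls, 5.81, 3.27 and 3.92 TPM in CT26NYESO1 controls and 136, 127 and 116 TPM in LL2 controls. The 3 lines did not overlap, and LL2 stood 24.3-fold above CT26NYESO1 on the log2(TPM + 1) scale (4.60 ± 0.28, adjusted p = 2.10e-09), with CT26NYESO1 -2.10 ± 0.28 from CT26 (1.09e-05). Egln1 (PHD2), the main oxygen sensor, went the other way with 49.9, 45.2 and 49.7, then 68.9, 74.5 and 68.7, then 49.3, 45.1 and 43.8 TPM in the same order of lines, higher in CT26NYESO1 than in CT26 by 0.54 ± 0.11 (3.45e-04) and lower in LL2 than in CT26NYESO1 (-0.61 ± 0.11, 1.13e-04). As a share of the summed TPM of Egln1, Egln2 and Egln3, Egln3 was 12.6% to 17.8% in CT26, 2.45% to 4.32% in CT26NYESO1 and 56.1% to 58.7% in LL2 controls.

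Among secreted peptides, Vegfa, the main vessel growth factor, had 186, 144 and 196 TPM in CT26 controls, 108, 120.1 and 104 TPM in CT26NYESO1 controls and 45.5, 37.6 and 34.1 TPM in LL2 controls. LL2 was below CT26 by 4.39-fold (-2.13 ± 0.25, adjusted p = 2.67e-06) and below CT26NYESO1 (-1.49 ± 0.25, 1.07e-04). The call between CT26NYESO1 and CT26 (-0.65 ± 0.25, 0.0341) ended after rescaling (-0.44, 0.149) and after quantile normalization (-0.45, 0.136) and without CT26 control replicate 1 (-0.60, 0.0899) or 3 (-0.56, 0.105) or CT26NYESO1 control replicate 1 (-0.63, 0.0743) or 3 (-0.60, 0.0882). Adm, which encodes the vasodilator adrenomedullin, was highest in LL2, where Vegfa was lowest, with 52.1, 47.02 and 43.7 TPM in LL2 controls against 7.76, 3.48 and 8.56 TPM in CT26 and 4.58, 4.83 and 3.87 TPM in CT26NYESO1. LL2 was 6.72-fold above CT26 (2.75 ± 0.40, 2.70e-05), and the CT26 lines overlapped.

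Car9, a membrane carbonic anhydrase that affects pH outside the cell and is a standard hypoxia marker, read 18.5, 9.82 and 16.2 TPM in CT26 controls, 42.6, 50.6 and 23.6 TPM in CT26NYESO1 controls and 3.55, 2.12 and 2.88 TPM in LL2 controls. No line overlapped another. CT26NYESO1 was above CT26 by 1.31 ± 0.28 (adjusted p = 6.49e-04) and LL2 was below CT26NYESO1 by 10.03-fold (-3.33 ± 0.28, 4.40e-08). Thus the LL2 controls were highest for Egln3 and Adm and lowest for Car9 and Vegfa, and no single ranking of the lines held for all members.

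The stress genes Bnip3 (a mitophagy receptor) and Ndrg1 (a differentiation and stress gene) were highest in CT26NYESO1. Bnip3 read 164, 195 and 172 TPM there against 85.5, 39.7 and 89.7 TPM in CT26 and 70.9, 70.9 and 56.5 TPM in LL2 controls, a difference of 1.38 ± 0.34 from CT26 (adjusted p = 0.00268). Ndrg1 read 213, 210.5 and 209 TPM against 148, 72.6 and 127 and 74.5, 58.3 and 66.5 TPM, with 0.92 ± 0.32 (0.0214) between CT26NYESO1 and CT26, and 0.61 (0.108) without CT26 control replicate 2. Ndrg1 in LL2 against CT26 was not called (-0.74 ± 0.32, 0.0530), but was without CT26 control replicate 2 (-1.04, 0.0103) and, on its unchanged difference, without CT26NYESO1 OK-432 replicate 2 (0.0207) or 3 (0.0365) or LL2 OK-432 replicate 2 (0.0395) or 3 (0.0449). Ddit4 (REDD1, which restrains the growth kinase mTORC1) was highest in LL2, with 72.2, 70.4 and 49.2 TPM against 31.5, 17.8 and 30.6 TPM in CT26 (1.25 ± 0.26, 6.30e-04).

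The collagen prolyl 4-hydroxylases and the remaining members completed the contrast. P4ha2 was lower in LL2 than in CT26 (-1.52 ± 0.30, adjusted p = 4.18e-04) and P4ha1 likewise (-0.67 ± 0.13, 1.80e-04). The call of P4ha1 between CT26NYESO1 and CT26 (-0.40 ± 0.13, 0.0106) ended after rescaling (-0.19, 0.222) and after quantile normalization (-0.20, 0.192). Plin2, which coats lipid droplets, had 292, 243 and 312 TPM in CT26 controls, 91.4, 83.7 and 92.1 TPM in CT26NYESO1 and 140.4, 133 and 141 TPM in LL2 controls, without overlap. Together with Egln3 it was the member furthest below CT26 in CT26NYESO1 (-1.65 ± 0.14, 2.63e-08). Of the nuclear regulators, Ankrd37 (an ankyrin-repeat protein) was higher in CT26NYESO1 than in CT26 by 1.66 ± 0.26 (4.74e-05) and Mxi1 (a MYC antagonist) by 0.82 ± 0.13 (3.15e-05), with Mxi1 also higher in LL2 (0.97 ± 0.13, 4.35e-06). The histone demethylase Kdm3a (0.29 ± 0.14, 0.0849) and the repressor Bhlhe40 (0.39 ± 0.22, 0.135) were not called between CT26NYESO1 and CT26 as deposited, and both were called after rescaling (0.49, 0.00930, and 0.59, 0.0358).

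Of the genes that control HIF, all 9 tested (of 11 listed) were lower in CT26NYESO1 than in CT26 controls as deposited, beside 43.9% of all tested genes, led by Epas1 (-1.09 ± 0.19, adjusted p = 7.44e-05), the HIF-2 alpha subunit that vessels and macrophages also express, Cited2 (-0.88 ± 0.12, 4.71e-06), which competes with HIF for its coactivator, and Vhl (-0.49 ± 0.07, 1.79e-05). After rescaling 4 of the 9 were lower (44.4%, beside 32% of all genes) and none higher, and after quantile normalization 3 were lower (33.3%, beside 29.8%) and 1 higher, with Epas1, Cited2 and Vhl lower in both. In LL2 against CT26, 1 was higher and 5 were lower (11.1% and 55.6%, beside 29.1% and 39.7% of all genes). Quantile normalization gave 3 and 4 (33.3% and 44.4%, beside 38.7% and 31.3%). The largest differences were in Epas1 (-0.96 ± 0.19), Cited2 (-0.73 ± 0.12) and Egln2 (-0.51 ± 0.07). In LL2 against CT26NYESO1, 4 were higher and 1 was lower (44.4% and 11.1%, beside 38.8% and 27.5%), led by Hif1a (0.68 ± 0.10, 2.51e-05). Rescaling gave 3 and 2 (33.3% and 22.2%, beside 32.7% and 33%), so the share higher was near that of all genes. The median difference of the 9 was -0.31 for CT26NYESO1 minus CT26, -0.18 for LL2 minus CT26 and 0.15 for LL2 minus CT26NYESO1, beside -0.18, -0.08 and 0.10 over all tested genes.

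Other isoforms of the glycolytic chain were called in both directions in each pair of lines (4 higher and 6 lower of 18 tested for CT26NYESO1 minus CT26, 3 and 6 for LL2 minus CT26, and 8 and 6 for LL2 minus CT26NYESO1). Quantile normalization gave 7 and 6 for LL2 minus CT26 (38.9% and 33.3%, beside 38.7% and 31.3% of all genes). As deposited, the shares for CT26NYESO1 minus CT26 are 22.2% higher and 33.3% lower, beside 21.1% and 43.9% of all tested genes, and for LL2 minus CT26 16.7% and 33.3%, beside 29.1% and 39.7%, so these shares do not set the list apart. For LL2 minus CT26NYESO1 these isoforms stood at 44.4% higher and 33.3% lower, beside 38.8% and 27.5%. Their largest differences were in Ldhb (the lactate dehydrogenase of oxidative tissue, -2.26 ± 0.14 for CT26NYESO1 minus CT26), in the neuronal enolase Eno2 (2.25 ± 0.24) and, for LL2 minus CT26, in Eno1b (-3.87 ± 0.09), which is one of the near-identical Eno1 copies above. Of 36 other hypoxia-induced genes tested, 10 were higher and 10 lower in CT26NYESO1 than in CT26 (27.8% each, beside 21.1% and 43.9% of all genes), led by Vldlr (4.74 ± 0.26), a lipoprotein receptor, and Lox (-4.00 ± 0.55), a collagen cross-linker of fibroblasts. Rescaling gave 16 and 7 (44.4% and 19.4%, beside 29.9% and 32% of all genes). In LL2, 8 were higher and 14 lower than in CT26. That is 22.2% and 38.9%, near the 29.1% and 39.7% of all genes. Quantile normalization gave 13 and 13 (36.1% each, beside 38.7% and 31.3%). As deposited, 5 were higher and 18 lower in LL2 than in CT26NYESO1 (13.9% and 50%, beside 38.8% and 27.5%). Of 19 genes of pyruvate oxidation and the tricarboxylic acid cycle, 8 were higher and 6 lower in CT26NYESO1 than in CT26 (42.1% and 31.6%, beside 21.1% and 43.9% of all genes), led by the isocitrate dehydrogenase subunit Idh3a (0.81 ± 0.06). Rescaling gave 12 and 5 (63.2% and 26.3%, beside 29.9% and 32%). In LL2, 11 of the 19 were higher and 5 lower than in CT26 (57.9% and 26.3%, beside 29.1% and 39.7%), led by the succinate dehydrogenase subunit Sdha (0.95 ± 0.05), and 10 higher and 5 lower than in CT26NYESO1 (52.6% and 26.3%, beside 38.8% and 27.5%). Rescaling gave 12 and 3 against CT26 (63.2% and 15.8%, beside 33.7% and 35.4%). Against CT26NYESO1 it gave 8 and 8 (42.1% each, beside 32.7% and 33%).

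The tumours also differed in their other cells. The summed TPM of 10 endothelial markers was 495 to 560 in CT26 controls, 89.5 to 127 in CT26NYESO1 controls and 135 to 190 in LL2 controls, with 10 of 10 lower in CT26NYESO1 and in LL2 than in CT26, and no marker at 0 in every library of a group. The 8 fibroblast markers summed to between 6220 and 9341 TPM in CT26 controls, 1267 and 1674 TPM in CT26NYESO1 controls and 3094 and 3774 TPM in LL2 controls, and 7 of 8 were lower in CT26NYESO1 than in CT26. In LL2 against CT26 they went both ways, with 3 called higher and 5 lower. All 8 macrophage markers were lower in LL2 than in CT26 (summed 1850 to 2202 against 3516 to 3994 TPM). Skeletal muscle markers summed to 6.95 to 8.43 TPM in CT26 controls, 9.81 to 163 TPM in CT26NYESO1 controls and at least 94.2 TPM in each LL2 control, with 6 of 9 tested markers higher in LL2 than in CT26 and none called between CT26NYESO1 and CT26. Of all tested genes, 43.9% were lower in CT26NYESO1 than in CT26, and 39.7% were lower and 29.1% higher in LL2 than in CT26. After rescaling, 6 of the 8 fibroblast markers were lower in CT26NYESO1, beside 32% of all genes. All 10 endothelial markers stayed lower in both lines. The part of these cells in the differences between lines was not tested. In bulk tissue, fewer cells of a type and less RNA per cell cannot be told apart, and line and these cell contents come together. Host strain may also differ with line, but the labels do not state which strain carried which line. No marker of the tumour cells themselves was listed, so the labelled lines were not checked against one.

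None of the 32 members was called with OK-432 in any line. In CT26 the background was 0% of tested genes called higher and 0% lower, in CT26NYESO1 0.41% and 0.256% (0.529% and 0.167% after rescaling), and in LL2 0.0119% and 0.00595%. The average over the 3 lines called 0.167% higher and 0.00595% lower, again with no member. No member was called in the difference of the effect between lines, where the background was 0% for CT26NYESO1 minus CT26, 0.00595% for LL2 minus CT26 and 0.00595% for LL2 minus CT26NYESO1. At an unadjusted p under 0.05, 1 member of 32 passed in CT26, 28 in CT26NYESO1 and 1 in LL2, against 689, 2727 and 884 of the 16816 tested genes. The average over lines had 12 members at such a p, of 1735 genes. A p that misses the threshold does not show that the levels are equal.

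Nearly all members lay above 0 in 2 lines. In CT26NYESO1 the difference was above 0 for 31 of 32 members, with a median of 0.33 over the enzymes and 0.61 over the others against -0.02 over all tested genes. In LL2 it was above 0 for 31 of 32, with medians of 0.10 and 0.18 against -0.01. In CT26 it was above 0 for 9 of 32, with medians of -0.02 and -0.03 against 0.00. In each of CT26NYESO1 and LL2 the single member below 0 was Pfkfb4. Members are not replicates, and these counts describe how the same libraries sit across related genes.

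**Figure D3:**
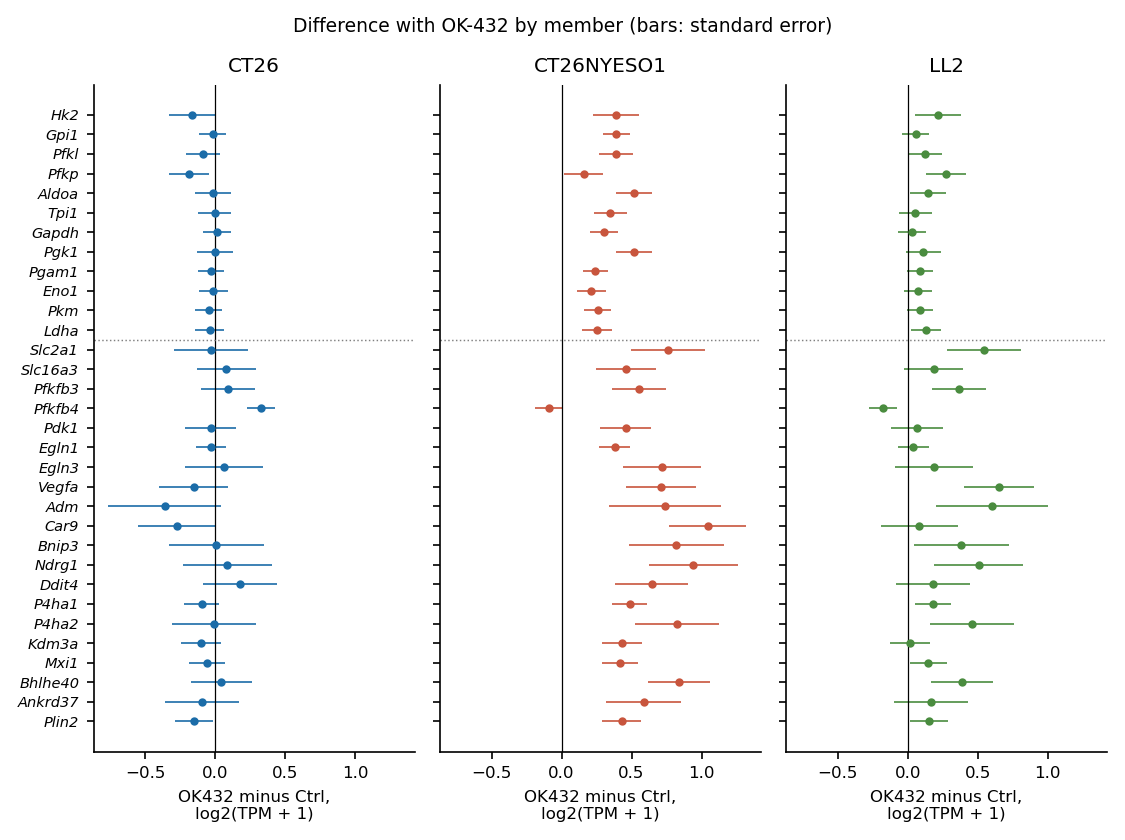
Difference between OK-432 and control tumours on the log2(TPM + 1) scale for each member in the 3 lines, with bars of 1 standard error and the enzymes above the dotted line. In CT26NYESO1 the values run from -0.09 (Pfkfb4) to 1.04 (Car9), in LL2 from -0.18 (Pfkfb4) to 0.65 (Vegfa) and in CT26 from -0.36 (Adm) to 0.33 (Pfkfb4).

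In CT26NYESO1 the smallest adjusted p of a member was 0.0713. It belonged to Gpi1, with 702, 611 and 844 TPM in the treated libraries against 559.8, 524 and 547 TPM in controls (0.39 ± 0.10). Every treated library exceeded every control for Gpi1 and for 10 other members, Pfkl, Aldoa, Pgk1, Slc2a1, Vegfa, Adm, Car9, Ndrg1, P4ha1 and Bhlhe40, that is 11 of 32 against 7.14% of all tested genes, while none had every treated library below (9.84%). Aldoa read 1945, 1589 and 2318 TPM against 1363, 1223 and 1473 TPM (0.51 ± 0.13, adjusted p = 0.0732), and it passed the threshold (0.0487, on the same difference) in the fit without CT26 control replicate 2. Pgk1 read 1824, 1411 and 2099 TPM against 1164, 1315 and 1210 TPM (0.51 ± 0.13, 0.0732). Both enzymes were thus highest in treated replicate 3 and closest to the controls in treated replicate 2.

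The largest differences in CT26NYESO1 lay outside the enzymes. Car9 had 78.8, 62.5 and 94.8 TPM in the treated libraries against 42.6, 50.6 and 23.6 TPM in controls, a 2.06-fold difference (1.04 ± 0.28, adjusted p = 0.0874). Ndrg1 had 456, 245 and 595 against 213, 210.5 and 209 TPM (0.94 ± 0.32, 0.167). Bhlhe40, which represses clock and lipid genes, had 109, 72.7 and 159 against 56.1, 60.4 and 63.7 TPM (0.84 ± 0.22, 0.0873). In these 3 genes the groups did not overlap, but the treated libraries spread far more than the controls for Ndrg1 and Bhlhe40, with replicate 2 lowest. Slc2a1 showed the same shape, at 186, 108 and 246 TPM against 97.9, 98.7 and 103 TPM (0.76 ± 0.27, 0.174), as did Vegfa at 194, 130.3 and 238 against 108, 120.1 and 104 TPM (0.71 ± 0.25, 0.175).

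Bnip3, the mitophagy receptor, had 386, 180.1 and 437 TPM against 164, 195 and 172 TPM (0.82 ± 0.34, 0.245), and its treated replicate 2 lay among the controls, so the groups overlapped. P4ha2, at 83.5, 42.2 and 95.5 TPM against 38.1, 50.4 and 30.6 TPM (0.82 ± 0.30, 0.194), overlapped for the same library. Egln3 overlapped too, with 10.4, 4.04 and 10.03 TPM against 5.81, 3.27 and 3.92 TPM (0.72 ± 0.28, 0.216).

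**Figure D4:**
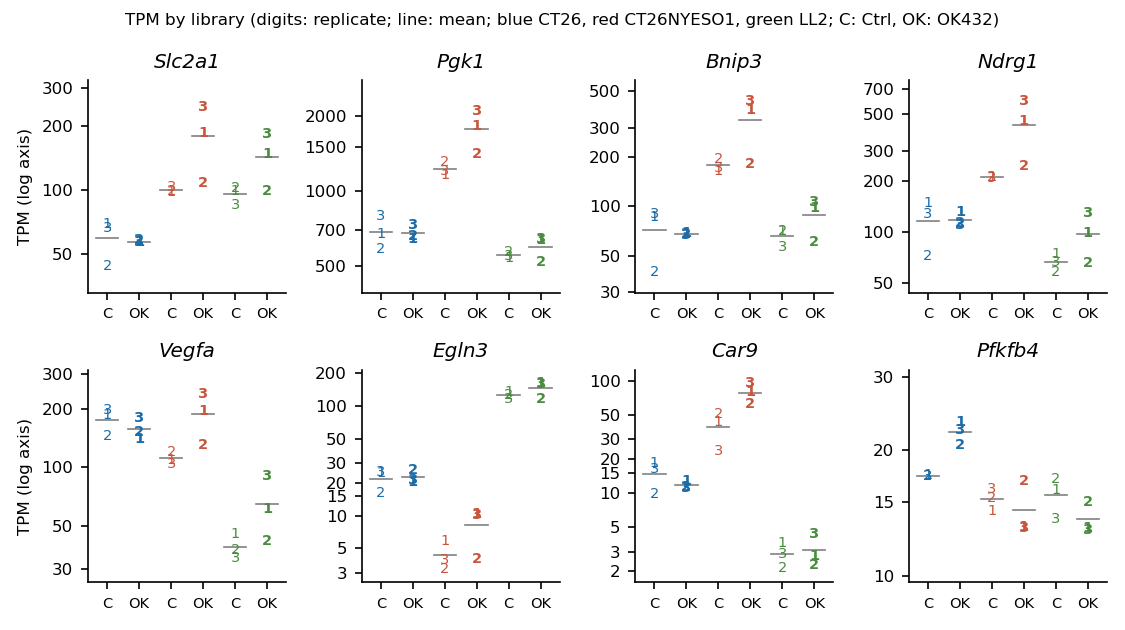
TPM (log axis) of 8 members in all 18 libraries, each drawn as its replicate number, with a line at the group mean (C, control; OK, OK-432; blue CT26, red CT26NYESO1, green LL2). In CT26NYESO1 and LL2 the treated replicates 1 and 3 lie above replicate 2 for 7 of the 8 genes, and Pfkfb4 shows the opposite order.

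The treated replicate 2 of CT26NYESO1 was the lowest of its group for 31 of 32 members, against 30.76% of all tested genes, and the exception was Pfkfb4, whose lowest library was replicate 3. The LL2 treated replicate 2 was the lowest for 30 of 32 (23.57% of all genes), with Pfkfb3 and Pfkfb4 the exceptions. In CT26 it was a control, replicate 2, that was lowest for 32 of 32 members (29.17% of all genes). What the replicate numbers stand for is not stated, and the labels tie these libraries by nothing else. As a median over members, relative to the control mean, the treated CT26NYESO1 libraries stood at 0.38, 0.04 and 0.52 for the enzymes and 0.72, 0.10 and 1.02 for the others. The treated LL2 libraries stood at 0.15, -0.00 and 0.18 for the enzymes and 0.30, -0.03 and 0.40 for the others. The CT26 controls stood at 0.03, -0.21 and 0.18 for the enzymes and 0.21, -0.35 and 0.17 for the others. In each of these sets the lowest library was lowest for both kinds of gene, and the other members spread further than the enzymes.

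**Figure D5:**
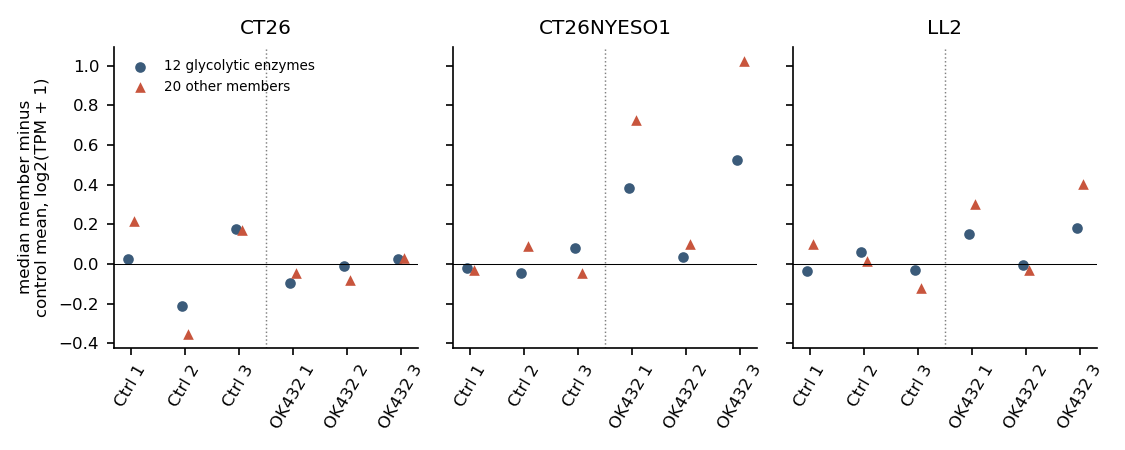
Median over the 12 enzymes (circles) and the 20 other members (triangles) of each library's difference from the control mean of its line, on the log2(TPM + 1) scale. Treated replicates 1 and 3 of CT26NYESO1 reach 0.38 and 0.52 for the enzymes and 0.72 and 1.02 for the others, while treated replicate 2 is at 0.04 and 0.10.

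Without treated replicate 2, the CT26NYESO1 comparison called 26 of 32 members higher, against 2.34% of all tested genes (394 of 16816), and this library alone decided the count. Egln1 was then 0.55 (adjusted p = 0.00161), Plin2 0.63 (0.00323), Bhlhe40 1.12 (0.00412), Pgk1 0.67 (0.00432), Gpi1 0.50 (0.00642), Slc2a1 1.09 (0.0165), Ndrg1 1.30 (0.0250) and Car9 1.20 (0.0443). The 26 included 10 of the 12 enzymes (not Pfkp or Eno1), both prolyl hydroxylases, Pdk1, Pfkfb3, Vegfa, Bnip3, Ddit4, P4ha1, P4ha2, Kdm3a and Mxi1, and they left out Pfkfb4, Slc16a3, Adm and Ankrd37. The average over lines called Bhlhe40 (0.52, 0.0227) in that fit, and the difference of the effect between CT26NYESO1 and CT26 called Egln1 (0.58, 0.0286) and Plin2 (0.79, 0.0248). Dropping a library after its values are seen is a description of what rests on it and no test of treatment.

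Neutrophil markers moved with the same libraries. The 16 markers summed to 862, 149 and 632 TPM in the treated CT26NYESO1 libraries against 50.6 to 72.3 TPM in controls, with 7 of 12 tested markers called higher, beside 0.41% of all tested genes, and no marker at 0 in every library of either group. Macrophage markers summed to 2402, 3806 and 2205 TPM in the same treated libraries, lower in replicates 1 and 3, against 3151 to 3968 TPM in controls. In treated LL2 libraries the neutrophil sum was 195, 197 and 332 TPM, alike in replicates 1 and 2, against 61.9 to 74.9 TPM in controls. In CT26 it was 232, 132 and 215 TPM after treatment against 48.7 to 59.1 TPM in controls, and the low control replicate 2 had 59.1 TPM. Endothelial markers summed to 118 to 160 TPM in treated and 89.5 to 127 TPM in control CT26NYESO1 tumours. Skeletal muscle markers summed to 17.2, 144 and 11.2 TPM in the treated CT26NYESO1 libraries, highest in replicate 2, and to 128, 9.81 and 163 TPM in its controls. In LL2 they summed to 29.4, 123 and 457 TPM after treatment against at least 94.2 TPM in each control, and in CT26 to 171, 26.5 and 7.54 TPM against 7.06, 6.95 and 8.43 TPM. No muscle marker was called with OK-432 in any line. The part of these cells in the members' differences was not tested.

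In LL2, OK-432 left only Pfkp and Bhlhe40 with every treated library above every control, 2 of 32 against 4.7% of all tested genes, and none below (5.17%). Pfkp read 52.8, 47.7 and 57.3 TPM against 42.1, 46.9 and 40.7 TPM (0.28 ± 0.14, adjusted p = 0.956) and Bhlhe40 45.8, 35.5 and 50.3 against 33.8, 33.5 and 31.7 TPM (0.39 ± 0.22, 0.998). The largest difference was that of Vegfa, with 61.3, 41.9 and 90.5 TPM against 45.5, 37.6 and 34.1 TPM (0.65 ± 0.25, 0.852). Adm followed with 83.8, 40.7 and 112 TPM against 52.1, 47.02 and 43.7 TPM (0.60 ± 0.40, 1), and Slc2a1 with 148, 98.9 and 183 TPM against 98.4, 102 and 85.1 TPM (0.54 ± 0.27, 0.946). In all 3 genes treated replicates 1 and 3 were above every control and replicate 2 lay within or, for Adm, below the control range. Egln3, so high in this line, read 162, 115 and 159 TPM against 136, 127 and 116 TPM (0.19 ± 0.28, 1).

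In CT26, 1 member of 32 had every treated library above every control, against 4.79% of all tested genes, and none below (5.1%). This was Pfkfb4, with 23.4, 20.5 and 22.4 TPM against 17.4, 17.3 and 17.3 TPM (0.33 ± 0.10, adjusted p = 0.872). Pfkfb3, the form whose kinase activity far outweighs its phosphatase activity, read 19.3, 19.1 and 19.05 TPM against 17.4, 15.9 and 20.7 TPM (0.09 ± 0.19, 1). In the treated CT26NYESO1 libraries the pair parted, with Pfkfb3 at 33.2, 18.1 and 26.9 TPM and Pfkfb4 at 13.1, 16.9 and 13.03 TPM. Their ratio was 2.54, 1.07 and 2.06 there, 1.25, 1.24 and 2.08 in treated LL2 and 0.826, 0.928 and 0.852 in treated CT26 libraries. Among treated CT26NYESO1 libraries, Pfkfb4 was thus highest in replicate 2, where the other 31 members were lowest.

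The enzymes together are abundant enough to be read as a share of all transcripts. They took 0.885% to 1.16% of TPM in CT26 controls and 0.938% to 1.08% after OK-432, 1.39% to 1.50% in CT26NYESO1 controls and 1.89, 1.51 and 2.07% after OK-432, and 1.22% to 1.28% in LL2 controls and 1.24% to 1.38% after OK-432. The CT26 and LL2 groups overlapped between treatment and control, and the treated CT26NYESO1 libraries all lay above their controls. These shares leave out the near-identical copies, whose part differs between lines. Gapdh copies averaged 1864, 2682 and 645 TPM in CT26, CT26NYESO1 and LL2 controls, and Eno1 copies 1544, 1494 and 108 TPM. Whether LL2 controls lie above or below CT26 controls in enzyme share is therefore uncertain.

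Most other hypoxia-induced genes also lay above 0 in CT26NYESO1. Of 36 other hypoxia-induced genes tested, 34 had a difference above 0 with OK-432, with a median of 0.38, and 1 was called, Bnip3l (0.51 ± 0.11, adjusted p = 0.0479), a mitophagy receptor related to Bnip3. That call ended in 16 of the 18 fits with 1 library left out, with the lowest value without CT26NYESO1 OK-432 replicate 3 (0.40, 0.298). In LL2, 33 of the 36 were above 0 (median 0.12) and in CT26, 15 (median -0.03). Of 19 genes of pyruvate oxidation and the tricarboxylic acid cycle, 1 was above 0 in CT26NYESO1 (median -0.10) and 1 was called lower, Sdhb (-0.27 ± 0.05, 0.0248), a subunit of succinate dehydrogenase. It was not called without CT26NYESO1 control replicate 1 (-0.24, 0.0993), control replicate 2 (-0.28, 0.0723) or OK-432 replicate 3 (-0.23, 0.184), nor after quantile normalization (-0.21, 0.0606), where Bnip3l also missed the threshold (0.51, 0.0518). With only the 2 CT26NYESO1 groups in the fit, neither gene was called (0.376 for both). None of the 9 genes of the HIF machinery was called with OK-432 in any line, and 3 of them passed an unadjusted p under 0.05 in CT26NYESO1, where Hif1a stood at 0.30 ± 0.10 (0.168). None of the 18 other glycolytic isoforms was called either, with 11 of 18 above 0 in CT26NYESO1 and a median of 0.01, and 4 passing an unadjusted p under 0.05. Both small counts stand beside 2727 of all 16816 tested genes that passed such a p in CT26NYESO1.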

How the data were processed

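Each of the 18 libraries was made from bulk tumour tissue with a kit that keeps the strand, per the labels' protocols. The values used are TPM per gene as deposited by the authors, and each library sums to 1000000. Per the submitters' processing notes, Trim Galore 0.6.5, STAR 2.7.3a, StringTie 2.1.2 and build mm10 were used. Annotation, counting strand and filters were not given in the sources used here. Because TPM does not retain read numbers, the depth is unknown and no counting interval is given; 24036 to 25858 genes were above 0 per library.

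Differences were tested on log2(TPM + 1) with limma 3.58.1 (R 4.3.3; trended, robust empirical Bayes, 12 residual degrees of freedom) in 1 fit of all 6 groups, over 16816 genes with at least 1 TPM in at least 3 libraries, with Benjamini-Hochberg adjustment over all of them and a threshold of 0.05. The fit was tested on simulated data. Alternatives were other pseudocounts (0.1 and 5), filters, scalings and shrinkage, own groups only, a replicate block and each library left out. Summing near-identical copies (BLAST 2.17.0) was chosen after seeing the data. All 32 members are described, and of each further list up to 3 called genes of largest difference per comparison could be named. The members and lists were chosen with earlier results of these data known. Upstream windows came from RefSeq (GRCm38.p6).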

Additional observations from a re-analysis of the deposited data

How the results depend on the processing

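Over all alternatives, 9829 of 9990 values of the members and further named genes stayed on the same side of the threshold. Much of that agreement was fixed in advance. No member was called with OK-432, and many fits left out a library outside the comparison, where the difference cannot change. All 896 values stayed for the CT26 effect and for the LL2 effect. In the CT26NYESO1 effect 28 values were stronger and 26 weaker, and in CT26NYESO1 minus CT26 controls 9 and 31. Of the values called neither in the main fit nor in the alternative concerned, 120 changed sign. With 1 library left out, the members called higher with OK-432 ranged from 0 to 26 in CT26NYESO1, from 0 to 1 in the average over lines and from 0 to 2 in the CT26NYESO1 minus CT26 effect, where every upper value came from leaving out CT26NYESO1 OK-432 replicate 2. The enzyme median of that last difference of effects, 0.35 with all libraries, ranged from 0.25 to 0.51, and that of the LL2 minus CT26NYESO1 effect, -0.22, from -0.38 to -0.13.

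For CT26NYESO1 minus CT26 controls, median-of-ratios rescaling gave 2 members called lower in place of 4 and an enzyme median of 0.86 in place of 0.65, and quantile normalization gave a median of 0.58 over the other members in place of 0.34. Rescaling also moved the share of all tested genes called lower there from 43.9% to 32%. For LL2 minus CT26NYESO1 controls, the enzyme median was -0.42 as deposited, -0.54 after rescaling and -0.27 after quantile normalization, and that of the others was -0.31 and, after rescaling, -0.43. Gapdh turned from 0.39 to -0.30 (adjusted p = 0.0222) in LL2 minus CT26NYESO1 controls when its copies were summed, an added alternative that moves signal between rows by construction.

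Within a line, deviations of control and treated libraries of the same number correlated at -0.122 to 0.219. Own number was best in 1 of 9 libraries, LL2 replicate 2. Low correlations cannot exclude a pairing, and libraries of different lines were not compared by number. With the replicate block, 1 member (Aldoa, adjusted p = 0.0497) was called higher with OK-432 in CT26NYESO1 in place of 0. Sequencing depth is unknown, so values of members near 3 TPM, such as Car9 in LL2 and Egln3 in CT26NYESO1, have unknown counting error.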
